A study of Mus musculus with 4 samples.

Results

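Nuclei of the inguinal fat of 12 male C57BL/6 mice were searched for the macrophages that gather in aged fat and carry the gene programme of lipid-associated macrophages. A nucleus was counted when it had 300 or more genes, a UMI (unique molecular identifier, the tag that marks 1 RNA molecule) of Atp6v0d2 or St18, a UMI of Ptprc, Dock2, Mrc1 or Adgre1, and 0 UMIs of Adipoq, Pdgfra and Pecam1. The rule found 106 of 15329 nuclei (0.692%), which are called members here. Atp6v0d2 encodes a subunit of the vacuolar proton pump that acidifies lysosomes, and St18 encodes a zinc finger transcription factor. Ptprc and Dock2 mark immune cells at large, Mrc1 and Adgre1 mark macrophages, and the 3 excluded genes mark adipocytes, fibroblasts and endothelial cells. The members were thus chosen by their measured UMIs of 9 genes, and those genes are described without a test.

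The mice were young (9 weeks) or aged (57 weeks) and came from the National Institute on Aging (C57BL/6JN) or Jackson Laboratories (C57BL/6J). Which supplier gave which mice is not given in the sources used here, so age and substrain cannot be told apart. All were held at 30 °C for 3 weeks before 2 further weeks, housed singly, in which TN mice stayed at thermoneutrality (30 °C), 3D mice had their last 3 days at 6 °C, and 14D mice had 14 days at 6 °C. Each of the 6 groups had 2 mice, and the nuclei of each mouse were stained as 2 hashed aliquots, sorted and run in 1 of 2 pools. Both pools held every group, and the replicate number used here is the pool number. The inguinal lymph node had been removed before the tissue was frozen. No transgene was used. Fewer nuclei of a type and a lower yield of its nuclei cannot be told apart in these counts.

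Lipid-associated macrophages are found around dying adipocytes, where they take up lipid and digest it in lysosomes. They are known from obese fat, where the lipid receptor Trem2 drives much of their programme, and they express genes of lysosomal acid hydrolases, lipid transport and phagocytosis. Tissue-resident macrophages of fat lie along vessels and express scavenger receptors such as Mrc1 and Cd163.

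All 106 members came from aged mice. Aged TN replicates 1 and 2 gave 13 and 10 members, aged 3D replicates 18 and 12, and aged 14D replicates 10 and 43. The last of these mice held 40.6% of the members, which is why values below are given per mouse. No young aliquot of 12 listed either gene, while 9 aged aliquots of 12 listed Atp6v0d2 and 10 listed St18. An aliquot's table leaves out genes with fewer than 6 UMIs or found in fewer than 2 nuclei, so UMIs of either gene can be unseen in the young mice, and no fold is given. In aged mice 416 UMIs of Atp6v0d2 and 229 of St18 were counted. The age pattern was known when the rule was written and is a description only.

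**Figure D1:**
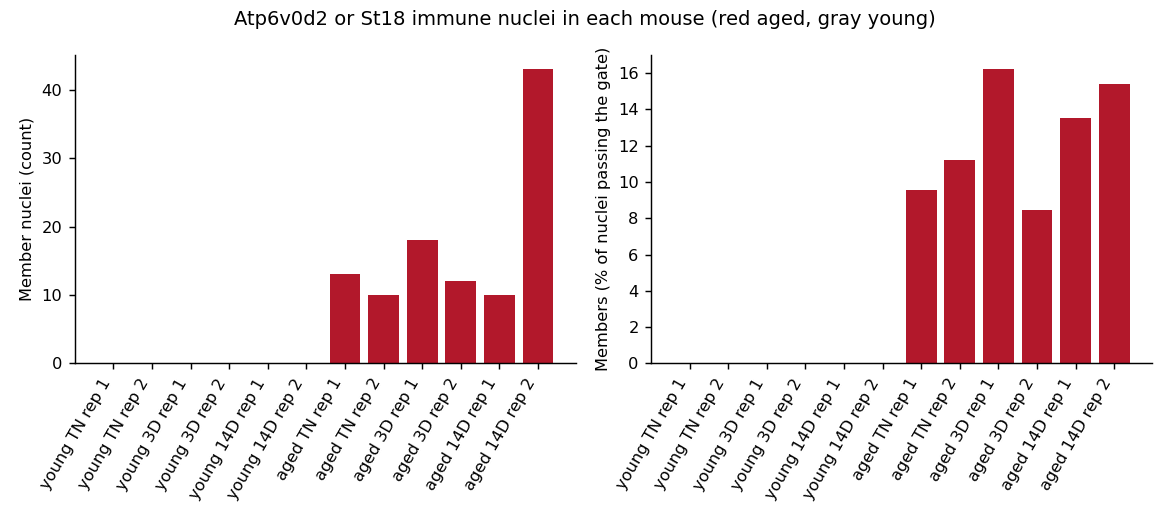
Number of members in each mouse (left) and members as a percentage of all nuclei that pass the immune gate (right), with aged mice in red and young mice in gray. Every aged mouse had 10 or more members, aged 14D replicate 2 had 43, and the young mice had 0.

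The gate itself was also passed by 1501 nuclei with 0 UMIs of Atp6v0d2 and St18, of which 725 came from aged and 776 from young mice. These are called same-gate nuclei and serve as the nearest comparison. In the aged mice the members made up 12.8% of the nuclei that passed the gate. The lowest share was 8.45% in aged 3D replicate 2, the median over the 6 aged mice was 12.4%, and the highest was 16.2% in aged 3D replicate 1. The 2 aliquots of a mouse gave 15.5% and 15.3% in aged 14D replicate 2 but 0% of 17 gate nuclei and 19.1% of 94 in aged 3D replicate 1. The aliquot with 17 gate nuclei listed neither Atp6v0d2 nor St18.

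Of the 106 members, 77 held Atp6v0d2 UMIs, 75 held St18 UMIs and 46 held both. The median was 4 UMIs over both genes, with a highest value of 28. Just inside the rule stood 24 members with 1 such UMI. Just outside stood 21 nuclei that had UMIs of Atp6v0d2 or St18 and were not members. Of these, 16 had no UMI of the 4 immune genes, 8 had Adipoq and 4 had Pecam1 UMIs. Members held 95.2% of all Atp6v0d2 UMIs and 90.8% of all St18 UMIs. Among members 98 had a Dock2 UMI, 76 a Ptprc UMI, 66 an Mrc1 UMI and 61 an Adgre1 UMI. The members were deeper than the aged same-gate nuclei, with medians of 1737.5 and 1220 UMIs, and per mouse their summed counts ran from 12567 to 100217 UMIs, against 79901 to 365490 for the same-gate nuclei. Doublet calling marked 3.23% of all nuclei and 0 members.

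Gpnmb and Lgals3, the 2 markers of these macrophages that the rule did not use, were tested first. They were chosen with earlier results of these data known, so their tests are no independent support. Gpnmb encodes a transmembrane glycoprotein of macrophages under lysosomal load, and Lgals3 encodes galectin-3, a sugar-binding protein that detects damaged lysosomes. With each nucleus thinned to 800 UMIs, which left 94 members and 539 aged same-gate nuclei, a Gpnmb UMI was found in 30.0% of members in the lowest aged mouse, 44.6% at the median and 62.5% in the highest. In the same-gate nuclei of the same mice the lowest share was 0%, the median 0.735% and the highest 4.17%. The difference averaged 44.4 percentage points ± 11.1 (SD, n = 6 mice) and was above 0 in 6 of 6 mice (two-sided exact permutation over sign flips, p = 0.03125, which is the smallest that 64 arrangements allow, and 0.03125 adjusted over the 2 genes).

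Lgals3 UMIs were in 50.0%, 56.7% and 66.7% of members at the lowest, median and highest mouse, and in 4.76%, 8.28% and 12.04% of the aged same-gate nuclei. The difference was 49.5 percentage points ± 5.87 (SD, n = 6 mice; exact permutation p = 0.03125, adjusted p = 0.03125). The shares of members and of same-gate nuclei did not overlap between mice for either gene. Young same-gate nuclei had a Lgals3 UMI in 3.85% to 8.79% and a Gpnmb UMI in 0% to 2.63%. As a measure of stray RNA, 174 aged nuclei with 3 or more Adipoq UMIs and no immune UMI, with a median of 5392.5 UMIs, had a Gpnmb UMI in 0.575% and a Lgals3 UMI in 2.87% as counted. As counted, 50.9% of members had a Gpnmb UMI and 69.8% a Lgals3 UMI, and 78 of 106 had a UMI of at least 1 of the pair.

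**Figure D2:**
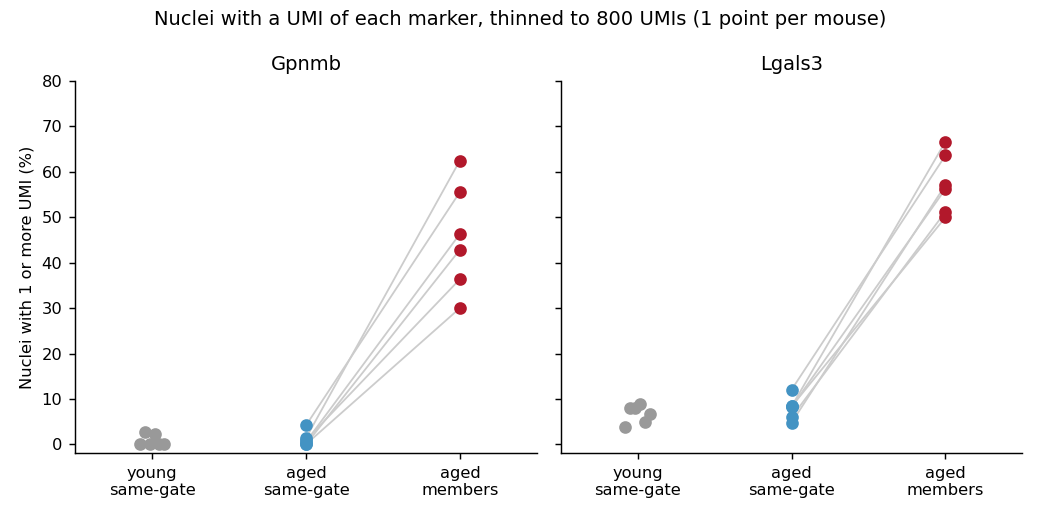
Percentage of nuclei with a UMI of Gpnmb (left) and Lgals3 (right) in young same-gate nuclei, aged same-gate nuclei and members, with nuclei thinned to 800 UMIs. Each point is a mouse and lines join the 2 sets of an aged mouse; all 6 member points lie above all same-gate points for both genes.

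Other markers of the class were seen in fewer members. As counted, Cd9, a tetraspanin, had a UMI in 17.9% of members and 1.93% of aged same-gate nuclei. Fabp5, a fatty acid carrier, had 6.60% against 0.690%, and Itgax, which encodes CD11c, 4.72% against 0.690%. In the Adipoq nuclei used above as a measure of stray RNA, Fabp5 was in 9.77%, Cd9 in 0% and Itgax in 0%. Trem2 was listed in 1 of 12 aged aliquots with 9 UMIs in all nuclei, and 4 members held it. Spp1, which encodes osteopontin, had 14 UMIs in all nuclei and none in members. The summed level of the 11 class markers, with the 2 gate genes included, ran from 6418 to 9947 CPM (counts scaled to a common library total) in members. Macrophage markers were present as well, with 7 of 7 found in members, the 2 gate genes Mrc1 and Adgre1 included, at a summed level of 1655 to 6645 CPM, against 5320 to 11215 CPM in same-gate nuclei.

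The 5 markers of T and natural killer cells, the 2 of mast cells, the 4 of endothelial, 3 of mural and 3 of muscle cells, and the 4 of hepatocytes had 0 UMIs in members, as did Pax5 and Ms4a1 of B cells, Ccr2, Flt3 and Cd209a of monocytes and dendritic cells, Dpp4 and Pi16 of fibroblasts, and Clec4f and Cd5l of Kupffer cells. Pecam1 of the endothelial markers is at 0 in both sets by the rule, so Flt1, Ptprb and Cyyr1 are what was measured there. Klrd1, Cpa3 and Flt3 were listed in 0 aged aliquots and Ms4a1, Cd209a and Cd5l in 1, so their zeros say little. In aged same-gate nuclei the T and natural killer cell markers summed to 47.0 to 459 CPM, the endothelial to 26.9 to 87.6, the mural to 0 to 161, the mast cell to 0 to 12.5, the muscle to 0 to 6.72 and the hepatocyte to 0 to 5.47. Of the adipocyte markers, 5 of 6 had UMIs in members, at a summed level of 0 to 4964 CPM per mouse with a median of 662, against 785 to 9408 CPM with a median of 3744 in the same-gate nuclei. Of the 6 monocyte and dendritic cell markers, Ciita had a UMI in 9.43%, Zbtb46 in 2.83% and Plac8 in 0.943% of members, and the summed level was 0 to 113 CPM in members and 255 to 473 CPM in same-gate nuclei. B cell markers summed to 79.6 to 973 CPM in members and 1012 to 3071 CPM in same-gate nuclei. Of their UMIs in aged same-gate nuclei 1389 were of Ebf1, 649 of Bank1, 19 of Pax5 and 0 of Ms4a1, so the sum is no measure of B cells alone. Fibroblast markers ran from 21.8 to 159 CPM in members and from 113 to 503 CPM in same-gate nuclei.

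To ask what else sets the members apart, UMIs were summed per aged mouse in members and in same-gate nuclei and compared in edgeR's quasi-likelihood test with the mouse as a block. Of 2071 genes tested outside the gate, 184 were higher in members (8.88%) and 221 were lower (10.7%) at an adjusted p (Benjamini-Hochberg) under 0.05, 19.6% in all, and 609 had an unadjusted p under 0.05 (29.4%). For 152 genes (7.34%) the 6 member values did not overlap the 6 same-gate values. Without aged 14D replicate 2, the mouse with most members, 1485 genes were tested and 264 passed instead of 405. The calls also depended on nuclei with UMIs of lymphocyte or mast cell genes. When nuclei with a UMI of lymphocyte or mast cell genes were left out of both sets, 81 members and 297 same-gate nuclei remained, and 218 of 793 genes passed, 172 of which were among the 405. Ebf1 and Bank1 are among these genes, while Pax5 was in 1.10% of aged same-gate nuclei, so such a UMI alone does not mark a lymphocyte.

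Markers of the class had the smallest adjusted p among the genes that rose. Lgals3 stood at 1361, 1792 and 2069 CPM in members (lowest, median and highest mouse) and at 81.8, 114 and 186 CPM in same-gate nuclei, a log2 difference of 3.83 ± 0.23 (SE; edgeR adjusted p = 9.84e-12). Gpnmb stood at 376, 1692 and 2913 CPM in members and at 0, 18.3 and 88.0 CPM in same-gate nuclei (log2 difference 6.13 ± 0.40, edgeR adjusted p = 2.11e-11). Mmp12, which encodes macrophage elastase, stood at 183, 663 and 2650 CPM in members. Its same-gate values were 0 in 4 of the 6 mice and reached 21.1 CPM, from 10 UMIs in all. Its UMIs lay in 24 of the 106 members, and members held 94.7% of the 206 UMIs of Mmp12 in all nuclei. For these 3 genes every member value was above every same-gate value, and the lowest Gpnmb value came from aged TN replicate 1. The filter on low counts asked for 111 CPM in 6 of the 12 sums. None of the 3 genes reached that in all 6 same-gate sums, so each needed the members, where it is high, to pass. Fitted with no filter, Lgals3, Gpnmb and Mmp12 had log2 differences of 3.51, 5.84 and 6.11.

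**Figure D3:**
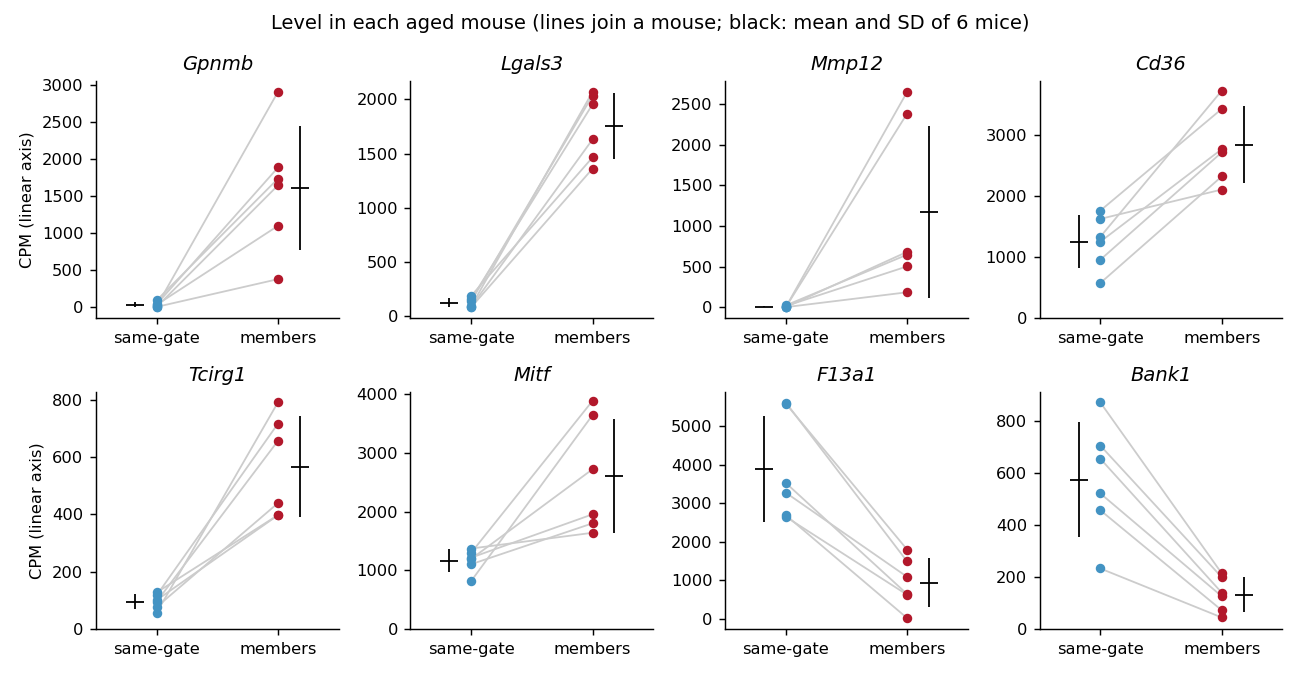
Level of 8 genes in same-gate nuclei and members of each aged mouse, in CPM on a linear axis, with a line per mouse and the mean and SD of 6 mice in black. Gpnmb, Lgals3, Mmp12, Cd36, Tcirg1 and Mitf were higher in members in 6 of 6 mice, and F13a1 and Bank1 were lower in 6 of 6.

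The other genes that rose in 6 of 6 mice with the smallest adjusted p were Cd84, a receptor of the SLAM family, Aopep, an aminopeptidase, Wfs1, a protein of the endoplasmic reticulum, Fmn1, an actin-nucleating formin, Apobec1, a cytidine deaminase that edits RNA, Cd44, the hyaluronan receptor, Tcirg1, Apbb2 and Airn. Their log2 differences lay between 2.15 for Apobec1 and 4.62 for Wfs1, and their values did not overlap between the sets. Cd84 had a median of 849 CPM in members and 124 CPM in same-gate nuclei, and Wfs1 367 and 11.7 CPM. Of these genes only Aopep reached 111 CPM in all 6 same-gate sums. The others needed the members, where they are high, to pass the filter, and Wfs1 had 14 UMIs in same-gate nuclei. With no filter the log2 differences lay between 1.82 for Apobec1 and 4.32 for Wfs1 (edgeR adjusted p = 5.12e-19 for Wfs1). Airn is a noncoding RNA whose gene (chromosome 17, 12741311 to 12860136, plus strand) overlaps Igf2r on the other strand. Whether the counting used strand is not given in the sources used here, and without it their reads cannot be told apart.

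Genes of the class list were read as a group beside the background of all genes tested, whose median log2 difference was -0.052. Of 25 genes on the list 14 passed the filter on low counts, 12 were higher and 2 lower, and their median was 1.78. Many higher genes needed the members, where they are high, to pass the filter: 81 of the 184 higher genes, and 3 of the 12 of the class list, reached 111 CPM in all 6 same-gate sums. The same held for 3 of the 7 lysosomal genes that rose, 2 of the 7 of lipid handling and 0 of the 2 of the matrix list below, so the counts and medians of these lists describe the tested genes and support no direction. With no filter, 185 of 13264 genes were higher (1.39%) and 786 lower (5.93%), and the counts higher and lower were 13 and 2 of 24 class genes, 7 and 0 of 30 lysosomal genes, 8 and 5 of 26 lipid genes and 4 and 3 of 17 matrix genes. The list was put together with earlier results of these data known. Lysosomal lipid handling was among it: Lipa, the lysosomal acid lipase, rose by a log2 of 2.32 ± 0.30 (edgeR adjusted p = 2.75e-06), from a median of 92.5 to 387 CPM. Among the cathepsins, lysosomal proteases, Ctsd rose by 2.16, Ctss by 1.61 and Ctsb by 0.90 on the log2 scale. Ms4a7, a membrane protein of macrophages, rose by 1.17 and was higher in 4 of 6 mice. The calls for Ctsb and Ms4a7 were lost with no filter (edgeR adjusted p = 0.151 and 0.179). The 2 that were lower were Fabp4 (log2 difference -2.36, edgeR adjusted p = 4.66e-05), a fatty acid carrier abundant in adipocytes, and Apoe (-0.76, adjusted p = 0.0393), the lipoprotein component. The adipocyte markers were lower in members as well, and their part in the Fabp4 result was not tested.

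The vacuolar ATPase pumps protons into the lysosome, with a V0 part in the membrane and a V1 part that splits ATP, and Atp6v0d2 belongs to V0. Of 32 genes of the lysosome and the pump other than Atp6v0d2, 16 were tested, 7 rose and 0 fell, with a median of 0.82. Tcirg1, the a3 subunit of V0 known from osteoclasts, rose from 56.3, 97.6 and 127 CPM in same-gate nuclei to 397, 548 and 791 CPM in members (log2 2.61 ± 0.27, edgeR adjusted p = 1.02e-07). Atp6v1a, the catalytic subunit of V1, rose by 2.04 ± 0.23 (edgeR adjusted p = 3.41e-07), from a median of 138 to 564 CPM. Atp6v1b2, Atp6v1c1 and Atp6v0a1 rose by 1.99, 1.65 and 1.51. Psap, the precursor of the saposins that help degrade sphingolipids, rose by 1.62 and Hexa by 0.85. The call for Hexa was lost with no filter (log2 0.54, edgeR adjusted p = 0.421). Atp6v0d1, the widely expressed isoform of the same subunit as Atp6v0d2, had a log2 difference of 0.64 (adjusted p = 0.138). The lysosomal membrane protein genes Lamp1 and Lamp2 had -0.20 and 0.35 and did not pass.

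**Figure D4:**
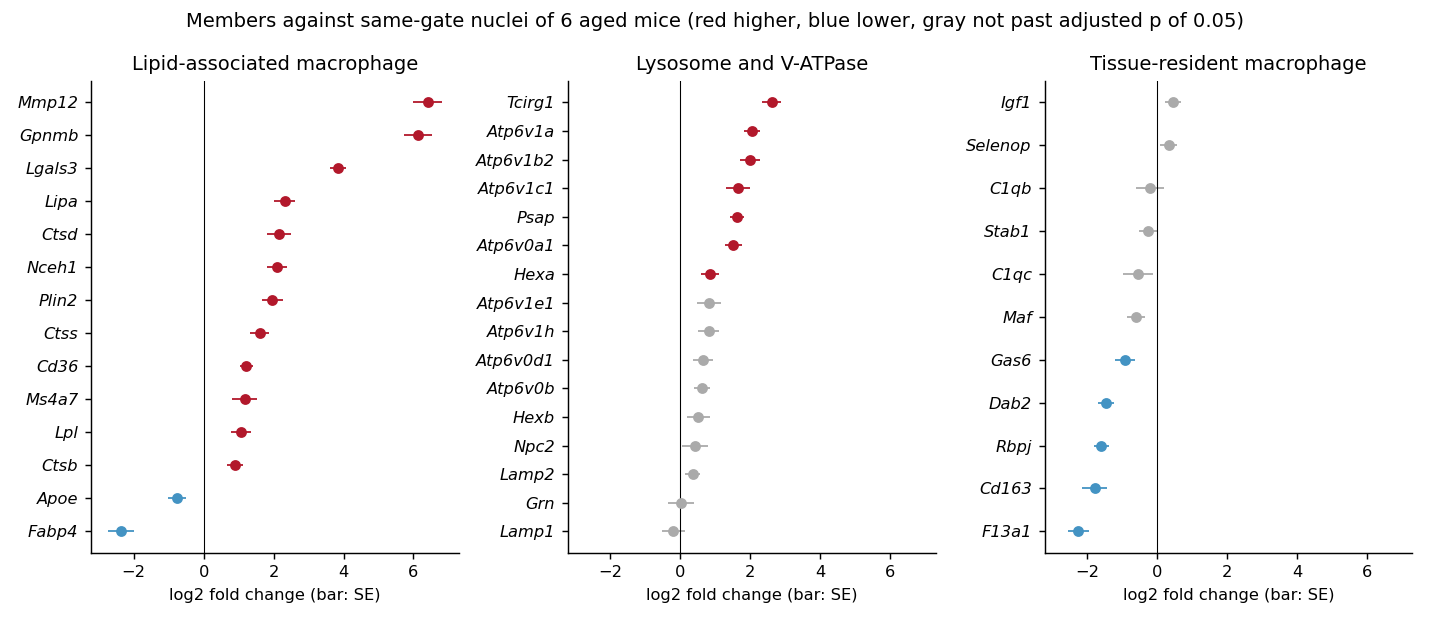
Log2 difference between members and same-gate nuclei, with its SE, for the tested genes of 3 lists (red higher, blue lower, gray not past an adjusted p of 0.05). Mmp12 and Gpnmb lie farthest to the right, 7 of 16 lysosomal genes rose, and 5 of 11 tissue-resident genes fell.

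Of 26 genes of lipid uptake, storage and efflux 13 were tested, 7 rose, 2 fell and 4 did not pass, with a median of 1.20. Of the risen genes Cd36, Nceh1 and Plin2 are also on the class list. Soat1, which esterifies cholesterol for storage, rose by a log2 of 2.48 ± 0.29 (edgeR adjusted p = 8.07e-07), from a median of 75.7 to 432 CPM. Nceh1, which hydrolyses cholesterol esters, rose by 2.10 ± 0.28 (edgeR adjusted p = 2.91e-06), and Plin2, a coat protein of lipid droplets, by 1.96. The receptors Lrp12 and Lrp1 rose by 2.32 and 1.77, and Cd36, the fatty acid translocase, by 1.23. Pltp, which transfers phospholipids, rose by 1.03, a call that was lost with no filter (log2 0.70, edgeR adjusted p = 0.144). Acsl1 and Abca9, a lipid transporter, were lower, at -2.94 and -0.75. The call for Acsl1 was lost without the mouse block (adjusted p = 0.0531). Acsl1, which activates long-chain fatty acids, is also on the adipocyte list. The cholesterol exporter Abca1 and the scavenger receptor Msr1 had 0.45 and 0.55 and did not pass. Lpl, the lipoprotein lipase gene of the class list, rose by 1.07 (edgeR adjusted p = 0.0105), and was found in 42.5% of members, in 15.4% of aged same-gate nuclei and in 98.9% of the adipocyte nuclei named above.

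Transcription factors of the MiT/TFE family switch on lysosomal genes. Of 23 such factors and partners 13 were tested, 2 rose and 1 fell, with a median of -0.20. With no filter 1 of 23 was higher and 5 lower. Mitf stood at 1638, 2337 and 3888 CPM in members and at 816, 1203 and 1370 CPM in same-gate nuclei, and rose by 1.11 ± 0.21 (edgeR adjusted p = 0.000389). The values of the sets did not overlap. Tfeb had a log2 difference of 0.63 (adjusted p = 0.113). Ppard, a lipid-sensing nuclear receptor, was lower in 6 of 6 (-1.26, adjusted p = 0.0323), and lost its call without aged TN replicate 2, either 3D mouse or 14D replicate 1 (adjusted p = 0.0597 to 0.0976).

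Osteoclasts are fused macrophages that also express Atp6v0d2. Of 20 osteoclast and cell fusion genes 5 were tested and 1 rose. With no filter 3 of 15 were higher and 0 lower. The gene that rose was Myo1e, a myosin of membrane traffic, at 71.6, 1149 and 2877 CPM in members and 83.3, 183 and 244 CPM in same-gate nuclei (log2 2.85 ± 0.33, edgeR adjusted p = 7.23e-07, higher in 5 of 6 mice). Myo1e needed the members, where it is high, to pass the filter, and its log2 difference was 2.53 with no filter. Tnfrsf11a, the receptor for the osteoclast signal RANKL, had 0.24 (adjusted p = 0.670) and Nfatc1, a factor of osteoclasts, -0.51 (adjusted p = 0.461). Of 20 phagocytosis genes 9 were tested, 3 rose and 1 fell, with a median of -0.16. With no filter 3 of 17 were higher and 4 lower. Cd300lb and Cd300a, receptors for lipids of dying cells, rose by 1.78 and 1.66, and Mertk, a receptor for apoptotic cells, by 1.06 ± 0.20 (edgeR adjusted p = 0.000344). Cd300lb and Cd300a needed the members to pass the filter, and had 1.45 and 1.37 with no filter. Gas6, the ligand of Mertk, was lower (-0.92, adjusted p = 0.0207), but not without aged TN replicate 2 or aged 3D replicate 1 (adjusted p = 0.0564 and 0.116).

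Of 20 genes of tissue-resident macrophages 11 were tested, 0 rose, 5 fell and 6 did not pass, with a median of -0.61. The fifth to fall was Gas6, with the limits given above. F13a1, the coagulation factor XIII subunit made by resident macrophages, stood at 2651, 3403 and 5615 CPM in same-gate nuclei and at 22.0, 868 and 1800 CPM in members (log2 -2.25 ± 0.30, edgeR adjusted p = 3.52e-06), with no overlap. Cd163, the haemoglobin scavenger receptor, was lower as well (log2 -1.78 ± 0.36, edgeR adjusted p = 0.000562), as were Rbpj, the factor of Notch signals (-1.59), and Dab2, an endocytic adaptor (-1.47). The complement genes C1qb and C1qc and Selenop had -0.20, -0.55 and 0.32 and did not pass. Of 21 monocyte and dendritic cell genes 4 were tested and 3 were lower, namely Cd74 (-1.42, adjusted p = 0.000895), H2-Aa (-1.18, adjusted p = 0.0158) and H2-Eb1 (-1.13, adjusted p = 0.0470), which serve antigen presentation. The H2-Aa call was lost without either 3D mouse or 14D replicate 2 (adjusted p = 0.0630 to 0.0870), and the H2-Eb1 call without any mouse but aged TN replicate 1 (adjusted p = 0.0554 to 0.180).

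The lower genes with the smallest adjusted p were not macrophage genes alone. They were Gda, Ebf1, Naaladl2, Lifr, Slit3, Cmah, Bank1, Ablim1, Ripor2, Slc1a5, Acsl1 and Rora, at log2 differences from -2.14 for Bank1 to -3.88 for Cmah. Gda, guanine deaminase, stood at 43.9, 114 and 376 CPM in members and at 528, 706 and 1402 CPM in same-gate nuclei. Both tested genes of 21 in the lymphocyte and mast cell list fell. These were Ebf1, a factor of B cells and adipocytes that had a UMI in 99.4% of the adipocyte nuclei, and Bank1, a B cell adaptor found in 40.6% of aged same-gate nuclei. The B cell markers Pax5 and Ms4a1 were in 1.10% and 0% of those same-gate nuclei, so Bank1 does not count B cells there. Of 20 adipocyte genes 6 were tested and 5 fell, with a median of -2.39, among them Slc1a5, a glutamine transporter (-3.05), and Ghr, the growth hormone receptor (-1.98). Without the mouse block the call for Ghr was lost (adjusted p = 0.145). The part of lymphocyte and adipocyte RNA in these results was not tested.

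Inflammation and growth factor genes gave few tests. Of 22 inflammation and interferon genes 2 were tested and 0 passed, Nfkb1 (0.13) and Tgfb1 (0.077). Il1b, Tnf and 18 others were under the filter on low counts or not listed. Of 19 matrix and growth factor genes 6 were tested and 2 rose, Mmp12 and Tgfbr1, a receptor of TGF-beta (1.67, adjusted p = 0.00219). Both needed the members to pass the filter. Igf1 and Pdgfc, both growth factors, had 0.45 and -0.26 and did not pass. No gene of the fibroblast, the endothelial, mural and muscle, the Kupffer cell and hepatocyte, or the cell cycle list reached the filter.

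The members were also compared with all other aged nuclei that had Ptprc or Dock2 UMIs. Of 2041 genes 205 were higher (10.0%) and 212 lower (10.4%), 20.4% in all. Values did not overlap for 160 genes (7.84%), and 620 had an unadjusted p under 0.05 (30.4%). Of the class list 13 genes were tested, 10 were higher and 1 lower, with a median of 2.09, and of the lysosomal list 15 were tested and 8 were higher, with a median of 0.85. Those other nuclei were free to hold Adipoq, Pdgfra and Pecam1, so genes of adipocytes, fibroblasts and endothelial cells can differ there through the gate alone. The 2 comparisons share the member sums.

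The members also differed among themselves. The 77 with Atp6v0d2 UMIs and the 29 with St18 UMIs alone are set side by side without a test, as the division was made after the values were seen and uses genes of the rule. Thinned to 800 UMIs, Gpnmb had a UMI in 42 of 70 members with Atp6v0d2 and in 2 of 24 with St18 alone (8.33%), and Lgals3 in 67.1% and 20.8%. F13a1 went the other way, with a UMI in 11.4% and 66.7%. Mitf was found in 56 of 70 and 16 of 24. As counted, 15 of the 29 members with St18 alone came from aged 14D replicate 2, and 13 of these 15 held an F13a1 UMI while 1 held Gpnmb. In the other 5 mice the members with St18 alone numbered 1 to 5 each. As counted, members with St18 alone had F13a1 in 65.5% and Cd163 in 27.6%, against 74.6% and 33.2% of aged same-gate nuclei. Gpnmb was in 13.8% and Lgals3 in 44.8% of them, against 1.66% and 11.0%. The 24 members with 1 key UMI had F13a1 in 70.8% and Gpnmb in 16.7%, at a median of 1074.5 UMIs, against 24.4% and 61.0% of the 82 with more, at a median of 2158.5 UMIs. Cd36 was in 75.0% and 82.9%. These shares pool nuclei of different mice and depths and were not tested.

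Age was then compared in the same-gate nuclei of all 12 mice, to see which genes differed by age once the members were taken out. No young aliquot listed Atp6v0d2 or St18, so nuclei were taken out of the aged sums alone. For genes high in members this lowers the aged side only, so their values here are a description and no test of age. Of 4549 genes 1 passed (0.0220%), and 365 had an unadjusted p under 0.05 (8.02%). This gene was Naaladl2, at 302, 468 and 549 CPM in aged and 43.9, 82.9 and 180 CPM in young mice (log2 2.25 ± 0.20, edgeR adjusted p = 0.000265), with no overlap. In members Naaladl2 was lower than in same-gate nuclei, at 0 CPM in the median mouse and 79.5 in the highest. Of the class list 14 genes were tested and 0 passed, with a median of 0.15 beside -0.0059 over all genes. Lgals3 stood at a median of 108 CPM in aged and 77.9 CPM in young mice (log2 0.48 ± 0.23, adjusted p = 0.613), and Cd36 at 1288 and 631 CPM (0.76 ± 0.31, adjusted p = 0.601). Lipa, Ctsb, Ctsd, Ctss, Nceh1, Plin2, Pld3, Ms4a7, Cd63, Apoe, Fabp4 and Lpl did not pass either. Gpnmb was under the filter, with 23 UMIs in aged and 6 in young same-gate nuclei. With 1 mouse left out the calls numbered 10 (young TN replicate 1), 41 (aged 14D replicate 1), 11 (aged 14D replicate 2) or 2 (young 3D replicate 1, aged TN replicate 2), with Naaladl2 among them each time.

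With the members kept in the aged sums, an alternative added after the data were seen, 18 of 4942 genes passed (0.364%), 15 higher (0.304%) and 3 lower (0.0607%) in aged mice. Lgals3 then stood at a median of 390 CPM in aged and 77.6 CPM in young mice (log2 2.19). Gpnmb, which was tested here only because the members were added, stood at 36.9, 286 and 649 CPM in aged and at 0, 4.59 and 11.4 CPM in young mice (log2 5.53). Aopep, Airn, Fmn1 and Myo1e, which were higher in members, had 1.16, 1.72, 1.32 and 1.72. Without the members their log2 differences were 0.50, 0.79, 0.57 and 0.70, with no call. Mmp12 was listed in no young aliquot. The added nuclei were chosen by genes that no young aliquot listed, so the values with members kept are a description and no test of age. The 2 fits share all young sums and most aged nuclei, and their difference was not tested.

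**Figure D5:**
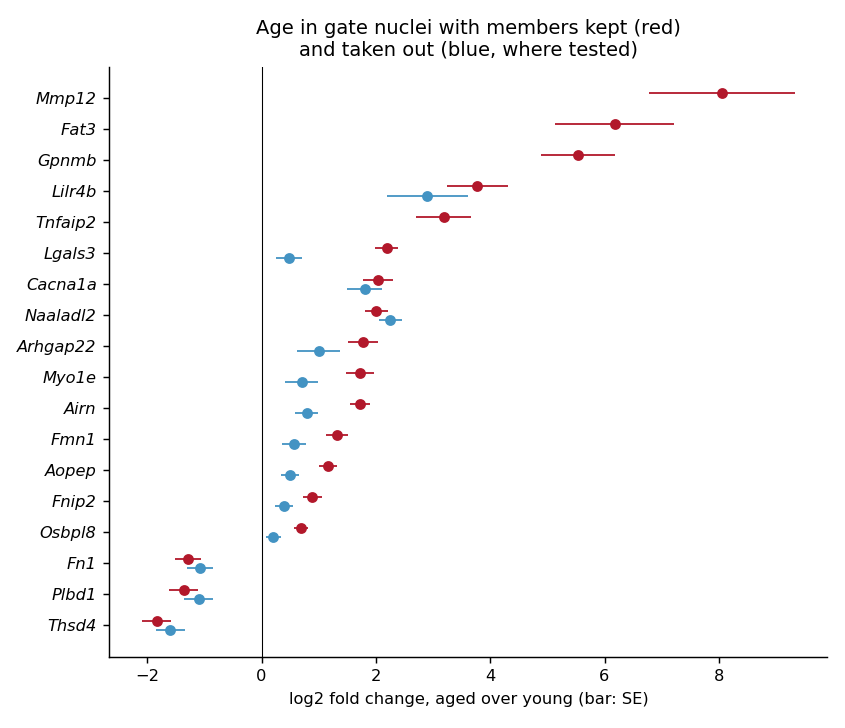
Log2 difference between aged and young gate nuclei, with its SE, for the 18 genes that passed with the members kept (red), and for the same genes with the members taken out (blue, where tested). For Lgals3 the value was 2.19 with members and 0.48 without, and for Naaladl2 it was 2.01 and 2.25. Only the aged sums held members to take out.

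Cold was compared within the members, at 2 mice a temperature. The member share of gate nuclei was 10.4% ± 1.19 in TN, 12.3% ± 5.49 in 3D and 14.5% ± 1.34 in 14D mice (mean ± SD, n = 2). The 14D minus TN difference was 4.07 percentage points (two-sided exact permutation within pool, p = 0.333), and thinned to 800 UMIs it was 2.80 points (exact permutation p = 0.556). The smallest p that 36 arrangements allow is 0.0556, so this design cannot pass 0.05. The median depth of members was 1003 and 1219.5 UMIs in TN, 2211 and 3185.5 in 3D, and 1546 and 2077 in 14D mice, lowest in the TN mice.

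Of 700 genes tested in members, 0 passed for 14D against TN (0.00%) in edgeR's quasi-likelihood test, with 25 at an unadjusted p under 0.05 (3.57%) and 0 by DESeq2. In this fit Gpnmb stood at 376 and 1678 CPM in the TN mice, 1070 and 1913 CPM in the 3D mice, and 1896 and 2862 CPM in the 14D mice, and its 14D difference was 1.29 ± 0.56 on the log2 scale (adjusted p = 0.996). For Lgals3 it was 0.15 ± 0.45 (adjusted p = 0.996). For 3D against TN 1 gene passed (0.143%), the phosphodiesterase gene Pde7b, and 32 had an unadjusted p under 0.05 (4.57%). Pde7b stood at 1065 and 1386 CPM in TN mice and at 200.2 and 268 CPM in 3D mice (log2 -2.38 ± 0.48, edgeR adjusted p = 0.0489). This call was lost without either TN mouse, either 3D mouse or 14D replicate 1 (adjusted p = 0.0636 to 0.909) and under DESeq2 (adjusted p = 0.145). The members of the TN mice summed to 12567 and 14870 UMIs, and what size of difference could be detected at this depth was not tested.

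Promoters of the genes that rose were read from RefSeq (GRCm38.p6, 250 bases before to 50 after a start) and searched on both strands for the E-boxes CACGTG and CATGTG, which MiT/TFE factors bind, and for TGACTCA, the AP-1 site, motifs chosen after the data were seen. Atp6v0d2, St18, Atp6v1b2 and Atp6v1c1 had no entry. Over all 32851 promoters 7.15% held CACGTG, 14.2% CATGTG and 5.202% TGACTCA. Counted by gene, with any start of a gene, the shares were 8.09%, 15.9% and 5.95% over all genes of the table, and 12.4%, 10.6% and 5.10% over the 1646 tested genes with an entry. Of the 148 risen genes with an entry 16 held CACGTG (10.8%), 23 CATGTG (15.5%) and 13 TGACTCA (8.78%). Of the 164 lower genes with an entry 18 (11.0%), 27 (16.5%) and 7 (4.27%) held them. These shares were not tested against each other. Of the 12 higher genes of smallest adjusted p, 0 held CACGTG, 1 CATGTG and 3 TGACTCA. The sequences of Gpnmb (chr6:49036268-49036567, plus strand), the second Mmp12 start (chr9:7347124-7347423, plus strand) and Atp6v1a (chr16:44139210-44139509, minus strand) are shown as those of the 2 class markers that hold a TGACTCA match and of the V-ATPase gene that holds CACGTG. Cd84 and Psap also hold TGACTCA and are not shown. Capitals mark the matched letters, which are a description and no proof of a site.
Gpnmb: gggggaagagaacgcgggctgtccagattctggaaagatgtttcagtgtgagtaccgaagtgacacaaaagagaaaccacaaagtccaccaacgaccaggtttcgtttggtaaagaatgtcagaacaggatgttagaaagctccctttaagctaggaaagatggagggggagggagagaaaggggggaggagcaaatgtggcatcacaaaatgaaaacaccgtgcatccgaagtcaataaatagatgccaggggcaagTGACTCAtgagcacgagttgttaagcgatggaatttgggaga
Mmp12: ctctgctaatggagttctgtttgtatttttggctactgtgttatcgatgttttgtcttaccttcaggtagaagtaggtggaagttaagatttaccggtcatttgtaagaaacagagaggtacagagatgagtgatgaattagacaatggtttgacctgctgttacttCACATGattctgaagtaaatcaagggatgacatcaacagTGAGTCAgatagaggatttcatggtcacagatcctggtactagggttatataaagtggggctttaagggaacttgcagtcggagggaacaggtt
Atp6v1a: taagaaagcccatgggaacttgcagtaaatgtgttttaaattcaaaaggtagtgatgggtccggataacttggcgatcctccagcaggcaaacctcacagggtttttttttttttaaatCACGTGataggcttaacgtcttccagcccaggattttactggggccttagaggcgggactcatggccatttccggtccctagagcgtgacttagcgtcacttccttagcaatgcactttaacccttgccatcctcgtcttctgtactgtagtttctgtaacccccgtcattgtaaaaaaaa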

How the data were processed

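Nuclei of frozen inguinal fat of 12 mice were profiled by droplet sequencing in 2 pools. The authors aligned reads to GRCm38 with Cell Ranger, introns included, counted UMIs per gene of GENCODE mouse release 24, removed ambient RNA with CellBender and kept hashtag singlets. The files they deposited hold counts of UMIs per gene and nucleus for each of 24 aliquots, not normalized, and omit genes with fewer than 6 UMIs or found in fewer than 2 nuclei of an aliquot, which were taken as 0. Age, temperature and replicate of each aliquot came from the deposited sample table. The hashtag libraries were not analysed here. Within a pool 0 barcodes were shared between aliquots, and 11 between pools.

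UMIs were summed per mouse and set of nuclei and tested in edgeR 4.0.16 (R 4.3.3; quasi-likelihood F-test, TMM, filterByExpr), with the mouse as a block for members against other nuclei, since both sums come from the same animal (the source of the pairing), and temperature or the 6 groups with the pool for the rest. The SE is the log2 difference over the square root of F, and p-values were adjusted by Benjamini-Hochberg across every gene in a fit. The 9 gate genes were left out of all calls. CPM uses TMM-scaled totals. DESeq2 1.42.0, Scrublet in scanpy 1.11.5 (expected rate 0.05), thinning to 800 or 500 UMIs, 1000 UMIs a nucleus and leaving out each mouse were alternatives, as were the pool left out and no filter on counts. The fits were tested on simulated data.

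The members, gene lists and tests were chosen with earlier results of these data known, so no list is independent evidence of its direction. Genes were named by rule: the 12 higher and 12 lower of smallest adjusted p that moved alike in every mouse, and up to 4 tested genes of each of 16 lists; other genes of these lists and of the fit with members kept were named after their values were seen. n counts mice, and nothing is a replicate but a mouse. Some results are not reported here.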

Additional observations from a re-analysis of the deposited data

Results flagged for a closer look

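Of 57 groups of 6 mice looked at, 10 held a mouse far from the others by Dixon's test (a gap over 0.625 of the range), and chance marks about 1 in 20 groups. Aged 14D replicate 2 had 43 members, with 18 in the next mouse. Fmn1 had a lowest value of 439 CPM in members, below 865 CPM in the next mouse. In members 6 lower genes had 1 mouse above the others, with Naaladl2 at 79.5, Slit3 at 347, Cmah at 49.7, Ablim1 at 149, Slc1a5 at 298 and Acsl1 at 546 CPM. In aged same-gate nuclei Acsl1 reached 2240 CPM and the share with a Gpnmb UMI reached 4.17%.

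Gpnmb was also found in nuclei outside the comparisons. Members held 31.3% of the 1531 Gpnmb UMIs of aged mice, and 1602 aged nuclei with a UMI of Pdgfra, a fibroblast and progenitor marker, held 41.8%. Thinned to 800 UMIs, Gpnmb was in 10.9% to 23.9% of such nuclei in aged mice (median 14.4%) and in 4.12% to 10.0% in young mice (median 5.58%), and these shares did not overlap. As counted, the shares were 12.6% to 37.5% in aged and 6.67% to 15.2% in young mice, which do overlap. This difference was noticed in the data and was not tested.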

How the results depend on the processing

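The 405 calls of members against same-gate nuclei became 971 with no filter on low counts (185 higher, 786 lower), 130 of 642 genes thinned to 800 UMIs and 218 without lymphocyte-marked nuclei, and lay between 264 and 417 without 1 mouse. For all other Ptprc or Dock2 nuclei 417 became 1297 with no filter and 279 to 512 without 1 mouse. The count without lymphocyte-marked nuclei, that without liver-marked nuclei (409) and that with members kept were added after the data were seen. Of the genes reported here that the naming rule gave and that were called in the first comparison, Acsl1, Gas6, Ghr, H2-Aa, H2-Eb1 and Ppard lost the call under at least 1 alternative, and 0 changed direction under any. Ctsb, Ms4a7, Hexa and Pltp, which the rule did not give for this comparison, lost the call with no filter. With no replicate block, that is without the mouse or pool in the fit, the counts were 345, 359, 1, 0 and 0 for same-gate nuclei, all other Ptprc or Dock2 nuclei, age, 14D and 3D. Besides Acsl1 and Ghr, the calls for Ppard, Gas6 and H2-Eb1 were lost without the block (adjusted p = 0.0517, 0.106 and 0.114).

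The 1 call for age became 106 with no filter, 4 in DESeq2, 2 with 1000 or more UMIs, 2 without doublets, 2 with genes listed in every aliquot and 18 with members kept, and 1 to 41 without 1 mouse. Without 1 mouse the count for 14D was 0 to 4 (3 without 3D replicate 1, 4 without 3D replicate 2, 3 without 14D replicate 1 and 1 without 14D replicate 2) and for 3D 0 to 6 (2 without TN replicate 1 or 14D replicate 2, 3 without 3D replicate 1, 6 without 3D replicate 2, 0 otherwise). The 3D count was 0 with size factors, no filter, DESeq2, no replicate block and 1000 or more UMIs. The marker shares ran from 41.1 to 47.3 points for Gpnmb and from 47.8 to 51.1 for Lgals3 without 1 mouse, where 5 mice cannot give an exact permutation p under 0.0625, and the member share from 3.12 to 5.01 points.

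Values near 0 that turned sign were Tnfrsf11a at -0.063, Nfkb1 at -0.19 and Tgfb1 at -0.31 with no filter, Tgfb1 at -0.12 in DESeq2, and, for age, Fabp4 at 0.059 in DESeq2, Fabp4 at 0.090 and Ctss at 0.057 with 1000 or more UMIs, and Ctsd at 0.48 and Ctss at 0.45 with members kept. Without 1 mouse, Tnfrsf11a ran from -0.13 to 0.52, and for age Fabp4 from -0.67 to 0.43, Ctss from -0.12 to 0.10, Lipa from -0.22 to 0.25, Ms4a7 from -0.095 to 2.53, Ctsd from -0.69 to 0.12, Pld3 from -0.40 to 0.41 and Plin2 from -0.27 to 0.37. The causes were not tested. With 10 to 43 members a mouse, genes of few UMIs fell under the filter and were not tested.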
